A study of Zea mays with 6 samples.

Results

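Transcript abundance was examined for 5 maize genes that are each known from a root mutant or from its pathway. RTCS (GRMZM2G092542), RUM1 (GRMZM2G037368) and LRP1 (GRMZM2G077752) act in the formation of crown, seminal or lateral roots, and RTH3 (GRMZM2G377215) and RTH5 (GRMZM2G426953) act in root hair growth. The genes were chosen by name and identifier and not by a cut on their measured values, although earlier results of these data were known. Each had 1 transcript among the 48312 transcripts of the table. The libraries came from root tips of cultivar Chang 7-2 grown in Hoagland's solution, with 1 library for each of 6 conditions: the primary root (PR), crown root (CR) and seminal root (SR), each untreated or kept for 24 h in solution with 100 mM NaCl (PR-salt, CR-salt and SR-salt). Roots of 6 to 10 cm were treated, at 3 days after germination for PR, 7 days for SR and 15 days for CR, and the terminal 1 cm of 10 to 15 roots was pooled for a library. Root type and plant age therefore changed together, and their effects cannot be told apart. All 6 conditions share the cultivar, and no mutant was studied.

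Maize forms its root stock from the embryonic primary and seminal roots and from crown roots that arise on the shoot, and auxin directs the start of each of them. In auxin signalling, Aux/IAA proteins hold auxin response factors (ARFs) inactive until auxin causes their breakdown. RTCS encodes an auxin-inducible LOB domain (LBD) protein, and rtcs mutants lack crown and seminal roots. RUM1 encodes an Aux/IAA protein, and rum1 mutants lack seminal roots and the lateral roots of the primary root. LRP1 encodes an SRS-type transcription factor that acts downstream of RUM1. Root hairs are tip-growing outgrowths of epidermal cells. RTH3 encodes a COBRA-like protein anchored at the cell surface, RTH5 encodes an NADPH oxidase that makes superoxide, and mutants of either gene have short hairs.

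The libraries held a median of 2549512 counted reads, the smallest 2.24% below and the largest 4.47% above it. A level is given as RPKM, the read count scaled to transcript length and to the counted reads of the library, with an exact Poisson 95% interval. A salt or root type ratio is the log2 ratio of 2 RPKM values with an exact binomial (Clopper-Pearson) 95% interval. With 1 library per condition, these intervals and the 2-library tests cover counting error only and compare libraries, not conditions. A transcript was called where the Audic-Claverie test, adjusted by Benjamini-Hochberg over all transcripts with a read in the pair (FDR), gave at most 0.001 and the log2 ratio was at least 1 in size. As markers of grass roots, nicotianamine synthase, an enzyme of iron uptake, and the nitrate transporter NRT2 were listed. Of the 9 nicotianamine synthase transcripts, 6 had at least 50 reads in the 6 libraries together. The 9 summed to 24.3 and 18.9 RPKM in PR and PR-salt against 1981 to 6004 in the other 4 libraries. The 6 NRT2 transcripts summed to 86.5 and 57.1 RPKM in PR and PR-salt and to 86.0 to 192 in the other 4. Of the markers of dividing cells, 16 cyclin A transcripts summed to 74.9 to 92.3 RPKM, and 12 cyclin B transcripts summed to 47.3 and 59.6 RPKM in PR and PR-salt and 71.6 to 91.5 in the other 4. The 2 transcripts of the RuBisCO small chain, a marker of green tissue, summed to at most 6.16 RPKM, and the 4 LHCB1 transcripts, of the light-harvesting antenna, to 28.0 to 112 RPKM. Of the LHCB1 transcripts, 1 was called higher under salt in CR, with 33 reads in CR and 78 in CR-salt. In such bulk samples fewer cells of a type and less RNA per cell cannot be told apart.

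Of the 5 genes, 4 were detected in every library and RTCS was near the limit of detection. RTCS had 3, 1 and 0 reads in untreated PR, CR and SR and 1, 0 and 2 with salt, so 7 of all reads counted. Every library was thus at or under the floor of 3 reads, which corresponds to 1.53 to 1.64 RPKM for this transcript of 735 bases. The level in PR was 1.60 RPKM with an interval of 0.329 to 4.66, and the counts of 0 allow up to 1.98 RPKM in CR-salt and 2.01 RPKM in SR as upper interval limits. No order of the conditions was detectable for RTCS at this depth, and no ratio is given for it. In the 24-h comparisons of salt-treated with untreated roots, a call for RTCS would have needed at least 27, 20 and 17 reads in PR-salt, CR-salt and SR-salt, and no fall could have been called.

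**Figure D1:**
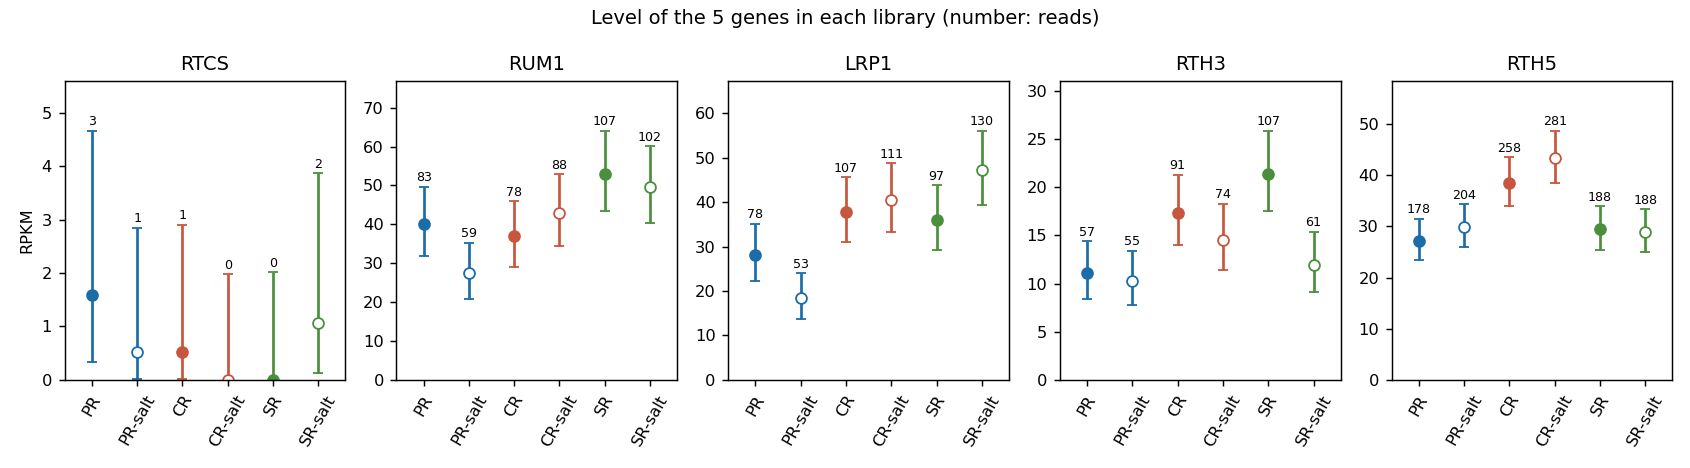
Level of RTCS, RUM1, LRP1, RTH3 and RTH5 in RPKM in the 6 libraries, with exact Poisson 95% intervals that cover counting error only and the read count printed at each point. RTCS stays at or under 1.60 RPKM, RUM1 is lowest in PR-salt (27.3) and highest in SR (53.0), LRP1 and RTH3 have their lowest levels in PR and PR-salt, and RTH5 has its highest levels in CR and CR-salt.

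RUM1, the Aux/IAA repressor, was measured with 59 to 107 reads per library on a transcript of 810 bases. It had 83, 78 and 107 reads in untreated PR, CR and SR and 59, 88 and 102 with salt. Its level was lowest in PR-salt, at 27.3 RPKM (20.8 to 35.3), and highest in SR, at 53.0 RPKM (43.4 to 64.0), 1.94-fold apart. The SR and SR-salt levels, 53.0 and 49.6 RPKM, were above all 4 others, which lay between 27.3 and 42.9 RPKM. None of the 5 pairs of neighbours in the order of its levels had a ratio whose interval excluded 0.

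For RUM1 the salt ratio in PR was -0.55 (interval -1.06 to -0.05), whereas it was 0.22 (-0.24 to 0.68) for CR and -0.10 (-0.50 to 0.31) for SR. The PR interval excluded 0, but the exact 2-library test gave p = 0.0243 and an FDR of 0.37, so RUM1 was not called. At 83 reads in PR, a fall would have been called at 37 reads or fewer and a rise at 173 or more. Between untreated roots its ratio was 0.52 (0.09 to 0.96) for SR over CR, with an FDR of 0.242, and 0.40 (-0.02 to 0.84) for SR over PR. Between treated roots the ratio of SR-salt over PR-salt was 0.86 (0.38 to 1.35), with an FDR of 0.00752 by the 2-library test, and fell short of both thresholds. The paralog rum1-like1 (GRMZM2G163848) had at most 4 reads in any library.

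LRP1, the transcription factor downstream of RUM1, was the member with the widest span of well-measured levels, 2.57-fold. It had 78, 107 and 97 reads in untreated PR, CR and SR and 53, 111 and 130 with salt on a transcript of 1083 bases. The level was 28.2 RPKM (22.3 to 35.1) in PR and 18.4 (13.8 to 24.0) in PR-salt, below the 35.9 to 47.2 RPKM of the CR and SR libraries. In the order of levels from SR-salt through CR-salt, CR, SR and PR to PR-salt, only the last pair of neighbours had a ratio whose interval excluded 0 (0.62, interval 0.09 to 1.15).

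LRP1 was the only member called in any 2-library comparison, and both calls were between salt-treated roots. CR-salt exceeded PR-salt with a log2 ratio of 1.14 (0.65 to 1.64) and an FDR of 5.54e-05. SR-salt exceeded PR-salt with a log2 ratio of 1.36 (0.89 to 1.85) and an FDR of 1.12e-07. Of all transcripts tested in these comparisons, 1.55% and 1.24% were called, and 0.722% and 0.773% were called higher. Both calls were lost when a biological coefficient of variation (BCV) of 0.1 or 0.2 was assumed for the missing replicates, with FDR values of 0.0173 and 0.871 for CR-salt over PR-salt and 0.00155 and 0.421 for SR-salt over PR-salt.

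Between untreated roots LRP1 was not called, and its ratios were 0.42 (-0.01 to 0.86) for CR over PR and 0.35 (-0.09 to 0.80) for SR over PR. The salt ratios of LRP1 were -0.62 (-1.15 to -0.09) in PR, 0.10 (-0.30 to 0.49) in CR and 0.39 (0.00 to 0.79) in SR, with FDR values of 0.288, 0.863 and 0.453. The PR and SR intervals lay on opposite sides of 0. An exact conditional test on the reads of the 4 libraries put the salt ratio in SR above that in PR by 0.998 (0.37 to 1.63), with p = 0.00224 and an FDR of 0.0696, above the threshold of 0.001. The intervals of such differences are normal approximations, whereas the test is exact. For CR against PR the difference was 0.70 (0.07 to 1.34), with an FDR of 0.401. The summed nicotianamine synthase and cyclin B levels were also lowest in PR and PR-salt, whereas the NRT2 sum was slightly lower in SR than in PR. The part of these in the low LRP1 level there was not tested.

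RTH3, the COBRA-like root hair gene, had the lowest RPKM of the 4 well-measured genes in each library, an order that did not hold in SR and PR-salt when only covered bases were counted as length. Its 2004-base transcript had 57, 91 and 107 reads in untreated PR, CR and SR and 55, 74 and 61 with salt. The highest level was 21.4 RPKM (17.6 to 25.9) in SR and the lowest 10.3 RPKM (7.76 to 13.4) in PR-salt, 2.08-fold apart. Like LRP1, both PR levels lay under those of the other 4 libraries, but SR-salt, at 11.98 RPKM (9.16 to 15.4), was close to PR at 11.1. No pair of neighbours in the order of levels had a ratio whose interval excluded 0.

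The salt ratio of RTH3 in SR was -0.84 (-1.32 to -0.37), with p = 0.000229 and an FDR of 0.0119 by the exact 2-library test, the lowest FDR of any member in the 3 salt comparisons. It was not called, because a fall would have needed 53 reads or fewer in SR-salt and 61 were counted. In PR and CR the ratios were -0.11 (-0.67 to 0.45) and -0.25 (-0.72 to 0.21). The difference between the SR and PR ratios was -0.72, with an approximate interval of -1.42 to -0.02. The exact conditional test gave p = 0.0551 and an FDR of 0.51 for it. Between SR and CR the difference was -0.58 (-1.21 to 0.05) with an FDR of 0.766.

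Between untreated roots the ratio of RTH3 for SR over PR was 0.95 (0.47 to 1.44), with an FDR of 0.00148, just outside both thresholds. A call would have needed 112 reads in SR, where 107 were counted. The ratio of CR over PR was 0.64 (0.15 to 1.15), with an FDR of 0.101. Under salt the intervals for SR-salt over PR-salt (0.22, -0.33 to 0.77) and CR-salt over PR-salt (0.50, -0.02 to 1.03) both held 0.

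RTH5, the root hair NADPH oxidase, had the most reads and the narrowest span of levels, 1.59-fold. Its 2559-base transcript had 178, 258 and 188 reads in untreated PR, CR and SR and 204, 281 and 188 with salt. The CR and CR-salt levels, 38.6 RPKM (34.0 to 43.6) and 43.4 RPKM (38.4 to 48.7), were above the 27.2 to 29.9 RPKM of the other 4 libraries. In the order of levels, the step from CR down to PR-salt was the one between neighbours whose interval excluded 0 (0.37, interval 0.10 to 0.64).

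For RTH5 the salt ratio in PR was 0.14 (-0.16 to 0.44), for CR it was 0.17 (-0.08 to 0.42) and for SR -0.03 (-0.33 to 0.27). With the most reads of the members, these intervals reach no further than a ratio of 0.44 in either direction, whereas the threshold for a call was 1. The salt ratios of the 3 root types differed by at most 0.20, and all 3 intervals of the differences held 0. Between root types the ratios that involved CR were 0.50 (0.22 to 0.79, FDR 0.00701) for CR over PR, -0.39 (-0.67 to -0.11, FDR 0.119) for SR over CR, 0.53 (0.27 to 0.80, FDR 0.00186) for CR-salt over PR-salt and -0.58 (-0.86 to -0.31, FDR 0.00118) for SR-salt over CR-salt. All were under the ratio threshold and over the FDR threshold of the 2-library test. SR and PR differed less, with ratios of 0.12 (-0.19 to 0.42) for SR over PR and -0.05 (-0.34 to 0.24) for SR-salt over PR-salt.

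**Figure D2:**
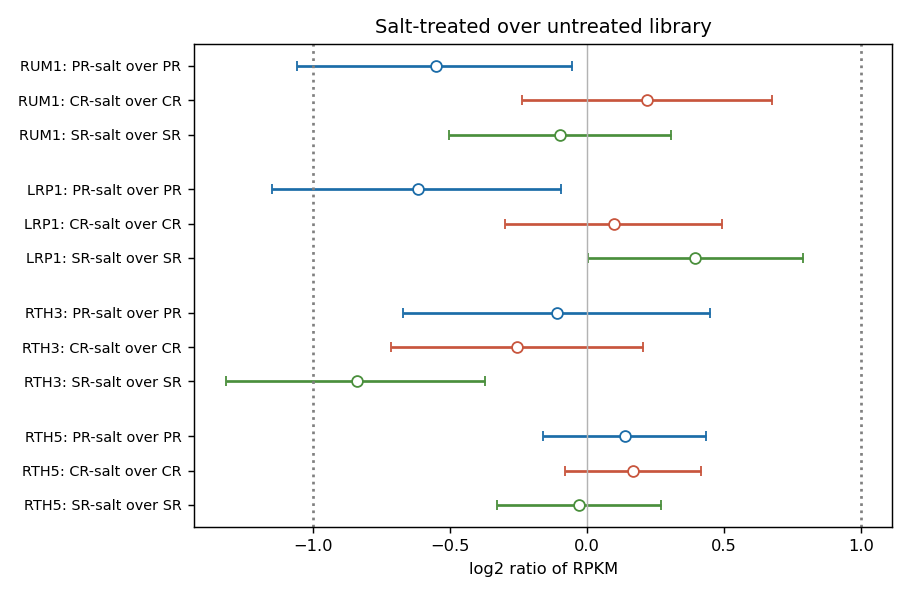
Log2 ratio of salt-treated to untreated RPKM for RUM1, LRP1, RTH3 and RTH5 in PR, CR and SR, with Clopper-Pearson 95% intervals that cover counting error only and dotted lines at the threshold of 1 in either direction. No ratio reaches a size of 1, and the RTH3 ratio in SR (-0.84) is the farthest from 0.

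Salt comparisons within a root type called none of the 5 genes. Over all transcripts, 0.519% were called for PR, 0.369% for CR and 0.392% for SR, and 0 calls among 5 genes is close to those shares. The median ratio of the 4 well-measured genes was -0.33 in PR, 0.13 in CR and -0.06 in SR, beside 0.04, 0.02 and 0.03 over all transcripts that had 50 or more reads in the pair. In PR the intervals of RUM1 and LRP1 lay below 0, in CR those of all 4 genes held 0, and in SR that of RTH3 lay below and that of LRP1 above 0. The share of all transcripts with such intervals was not computed. In PR, 2675 and 2233 of 40841 transcripts had a lower FDR than RUM1 and LRP1. In SR, 776 and 3669 of 40528 had a lower FDR than RTH3 and LRP1. The exact test of differences between salt ratios called none of the 4 genes in any pair of root types, where 0.662% of transcripts were called for CR against PR, 0.708% for SR against PR and 0.186% for SR against CR.

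A salt effect common to the 3 root types was estimated in an edgeR quasi-likelihood fit that had root type as a covariate, which uses the root types as replicates of the treatment. Its filter, 10 reads or more in 3 or more libraries, left out RTCS. At an FDR of 0.05 it called 0 of the 4 genes, as did DESeq2, and 0.613% of all transcripts. An unadjusted p under 0.05 was found for 1 of the 4, and for 12.5% of all transcripts. That gene was RTH3, with a log2 change of -0.45 (SE 0.18, FDR 0.323), which was -0.22 (FDR 0.847) without the SR libraries. The changes of RUM1, LRP1 and RTH5 were -0.16 (SE 0.17), -0.02 (SE 0.18) and 0.06 (SE 0.10).

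**Figure D3:**
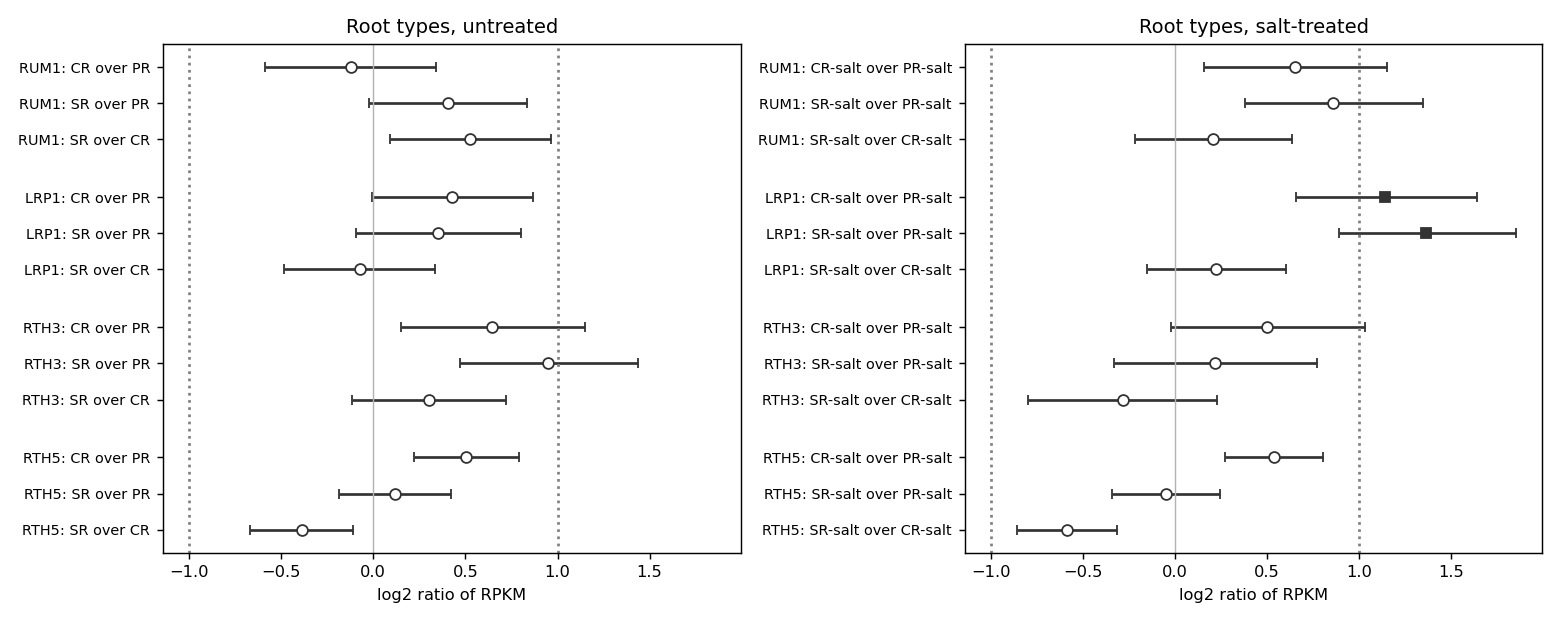
Log2 ratio of RPKM between root types for RUM1, LRP1, RTH3 and RTH5, in untreated and in salt-treated roots, with Clopper-Pearson 95% intervals that cover counting error only, dotted lines at the threshold of 1 and filled squares for calls. The 2 ratios past 1 are those of LRP1 in CR-salt and in SR-salt over PR-salt (1.14 and 1.36).

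Untreated roots gave no call among the 5 genes, where 2.06% of transcripts were called for CR over PR, 1.56% for SR over PR and 0.523% for SR over CR. Treated roots gave the LRP1 calls already named and none for SR-salt over CR-salt, where 0.436% of transcripts were called. RUM1 had a ratio of -0.12 (-0.59 to 0.34) for CR over PR.

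Between root types, the same edgeR fit used the salt-treated and the untreated library of a root type as its replicates. Over both treatments RTH5 was higher in CR than in PR by 0.52 (SE 0.12, FDR 0.0299). In that comparison 6.47% of transcripts were called and 2.91% were called higher. DESeq2 gave this gene an FDR of 0.634 and called 0 of the 4 genes. The changes of LRP1 were 0.75 (SE 0.23, FDR 0.0855) for CR over PR and 0.83 (SE 0.23, FDR 0.0719) for SR over PR, and neither passed. An unadjusted p under 0.05 was found for 3 of the 4 genes in CR over PR, as for 17.6% of transcripts. For SR over PR edgeR and DESeq2 each called 0 of the 4 genes, where edgeR called 4.68% of transcripts, and 3 had an unadjusted p under 0.05, as had 15.9%. For SR over CR both tools called 0, where edgeR called 1.1% of transcripts. RTH5 alone had an unadjusted p under 0.05 there (-0.50, SE 0.12, FDR 0.107), as had 11.8% of transcripts.

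By level, LRP1 and RTH3 had both PR libraries below the other 4, as had 11.5% of the 18444 transcripts in the edgeR fit. RTH5 had both CR libraries above the other 4, as had 8.22%, and RUM1 had both SR libraries above, as had 8.77%. Some root type was set apart in this way, on either side, in 43.9% of the transcripts. The step that set it apart had an interval that excluded 0 for RTH5 (0.37, interval 0.10 to 0.64). For RUM1, LRP1 and RTH3 the interval of that step held 0. Neighbours in a sorted order are the closest pairs, so intervals that hold 0 there do not show equal levels.

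The families of the members were described from lists made from the table's KEGG names and RefSeq synonyms. These lists hold only the transcripts that could be matched, so a rank is within the list and not within the whole family. Of 12 LBD and 2 SRS entries found in RefSeq, 8 and 1 carried an identifier of the table. RTCS ranked 8 of 12 LBD transcripts by mean RPKM over the libraries. The highest was LOB21 (GRMZM2G092483), with 22, 9 and 12 reads in untreated PR, CR and SR and 25, 9 and 12 with salt. LOB15 (GRMZM2G060544) had 28, 11 and 2 reads in untreated PR, CR and SR and 12, 3 and 2 with salt. Low counts were thus common to the list: 2 of the 11 LBD transcripts other than RTCS had at least 50 reads in the 6 libraries together. None of the 11 was called under salt, close to the shares of all transcripts called, 0.519% in PR, 0.369% in CR and 0.392% in SR.

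RUM1 ranked 10 of 45 Aux/IAA transcripts, with a mean of 41.6 RPKM where the highest other had 377. None of the other 44, from 34 genes, was called under salt in any root type, in either direction. Over all transcripts the shares called were 0.519% in PR, 0.369% in CR and 0.392% in SR, so 0 calls is close to them. Among these 44, the number with at least 50 reads in the pair was 14 in PR, 11 in CR and 13 in SR. Their median ratios were -0.05 in PR, 0.17 in CR and -0.06 in SR. Of these, GRMZM2G077356 was the most abundant and had 804, 560 and 561 reads in untreated PR, CR and SR and 868, 567 and 637 with salt. It was highest in the PR libraries, the reverse of LRP1 and RTH3.

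The ARFs, the partners that Aux/IAA proteins hold inactive, gave 0 calls among 44 transcripts of 37 genes, with median ratios of 0.10 (PR), 0.09 (CR) and 0.08 (SR). Of all transcripts, 0.519%, 0.369% and 0.392% were called in PR, CR and SR, so 0 calls is close to those shares. GRMZM2G317900, the ARF with the second highest reads per kilobase, had 995, 912 and 860 reads in untreated PR, CR and SR and 1242, 1041 and 1037 with salt. In PR, CR and SR its ratios were 0.26, 0.24 and 0.24, with FDR values of 0.00159, 0.0159 and 0.0136 by the 2-library test, far under the ratio threshold. The ARF with the most reads per kilobase, GRMZM2G169820, had ratios of 0.10, -0.02 and 0.21.

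LRP1 was the only well-detected member of the SRS list. SRS7 (GRMZM2G135783), the other gene of the list, had at most 2 reads in any library for either of its 2 transcripts. LRP1 had a mean of 34.7 RPKM against 0.248 for the higher of them.

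RTH3 ranked 4 of 10 COBRA-like transcripts, with a mean of 14.5 RPKM where the highest other, of Bk2L3 (GRMZM5G826714), had 220. The first transcript of Bk2L3 had 765, 801 and 670 reads in untreated PR, CR and SR and 754, 868 and 716 with salt. The 9 COBRA-like transcripts other than RTH3 gave 0 calls under salt, and the 3 with enough reads in the pair had median ratios of 0.07, 0.16 and 0.07. Again 0 calls is close to the shares of all transcripts called, 0.519% in PR, 0.369% in CR and 0.392% in SR. CSLD1 (GRMZM2G015886), a cellulose synthase-like gene of the subfamily that acts in tip growth, had 191, 257 and 328 reads in untreated PR, CR and SR and 215, 230 and 204 with salt. Its level was highest in SR, as was that of RTH3, and its salt ratio there was -0.71 (-0.97 to -0.46), with an FDR of 2.88e-06 by the 2-library test but a ratio under the threshold.

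RTH5 ranked 4 of 16 transcripts of respiratory burst oxidases (RBOH), the NADPH oxidases of plants. Of the other 15, from 13 genes, 1 was called lower under salt in CR and 1 in SR, none was called higher, and none was called in PR. Of all transcripts, 0.234% were called lower in CR and 0.311% in SR. Both calls fell on GRMZM2G300965, the most abundant of the list. It had 1311, 466 and 1158 reads in untreated PR, CR and SR and 1254, 207 and 316 with salt. Its level fell under salt by 1.13 (FDR 1.41e-19) in CR and by 1.90 (FDR 4.87e-113) in SR on the log2 scale, and its ratio in PR was -0.12. The second most abundant, GRMZM2G034896, had 412 reads in SR and 311 in SR-salt and was not called, and the median ratios of the list were 0.14 in PR, 0.18 in CR and 0.35 in SR.

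**Figure D4:**
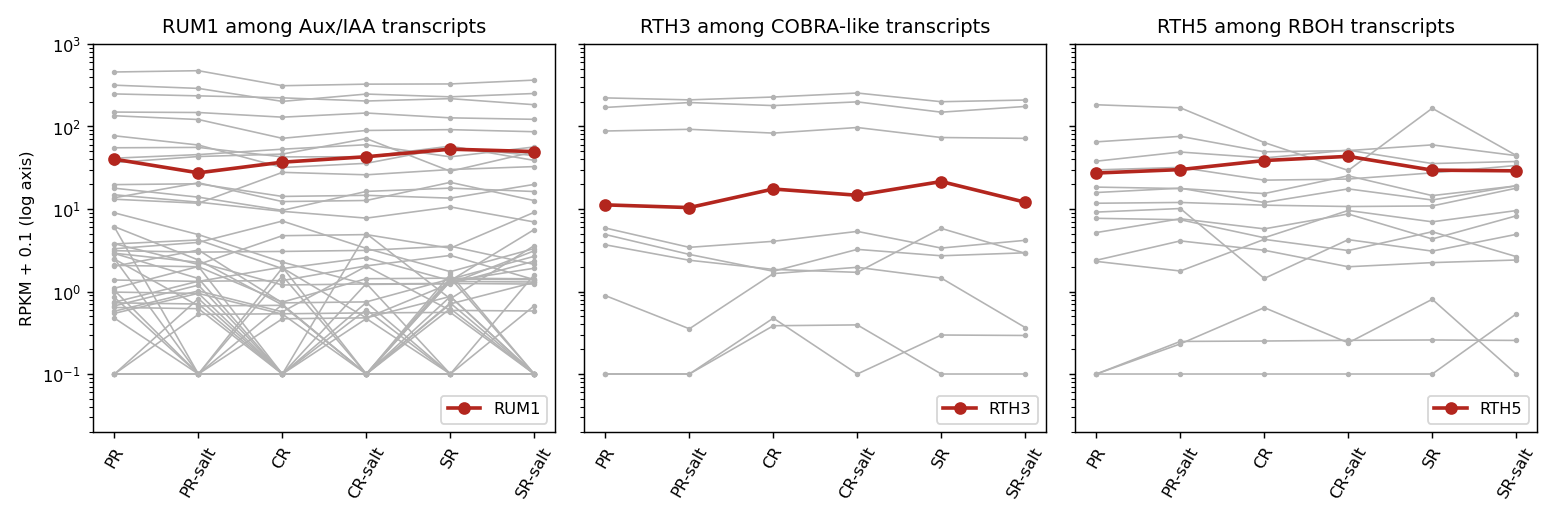
Level, as RPKM + 0.1 on a log axis, of RUM1, RTH3 and RTH5 (red) in the 6 libraries among the transcripts of the Aux/IAA, COBRA-like and RBOH lists (grey), where lines join the points of 1 transcript and stand for no order of the libraries. Each member lies in the upper part of its list without being the highest, with ranks of 10 of 45, 4 of 10 and 4 of 16 by mean RPKM.

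Among other genes known from root development, BIGE1 (GRMZM2G148937), a transporter that affects organ number, had 62, 66 and 68 reads in untreated PR, CR and SR and 70, 59 and 90 with salt. It was not called in any root type, and its highest ratio was 0.38 in SR.

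Transcripts with patterns most like those of the members were sought by Pearson's r of log2(RPKM + 1) over the 6 libraries among 10982 transcripts of adequate depth. The libraries share the same totals for all transcripts, so r is a description. The closest to RUM1 was AC203761.3_FGT002, annotated as DNA topoisomerase I (r = 0.994), and the closest to LRP1 was GRMZM2G072518, annotated as a protein kinase (r = 0.986). With 0.1 in place of 1 as the pseudocount, GRMZM2G165301, annotated as exocyst complex component 7, was the closest to LRP1 (r = 0.987) and GRMZM2G072518 the next (r = 0.985). For RTH3 it was GRMZM2G309368 (r = 0.990) and for RTH5 GRMZM2G334899, a beta-tubulin (r = 0.988). An r of at least 0.9 was reached by 91 transcripts for RUM1, 144 for LRP1, 113 for RTH3 and 136 for RTH5.

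The share of the transcript covered by at least 1 read differed among the members. LRP1 was covered to 84.8% to 98.3%, and RTH5 to 75.1% to 84.9%. RUM1 was covered to 64.3% to 70.6%. RTH3 stayed between 45.5% and 51.0% although its reads ranged from 55 to 107. Transcripts of like length and read count had median coverages of 57.9% to 78.5% in the same libraries, and 18.6% to 34.7% of them lay below RTH3. RUM1 and RTH5 were likewise under the medians of such transcripts, with 24.4% to 37.6% of them below RUM1 and 24.4% to 30.9% below RTH5, whereas LRP1 was above, with 72.6% to 97.1% below it.

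**Figure D5:**
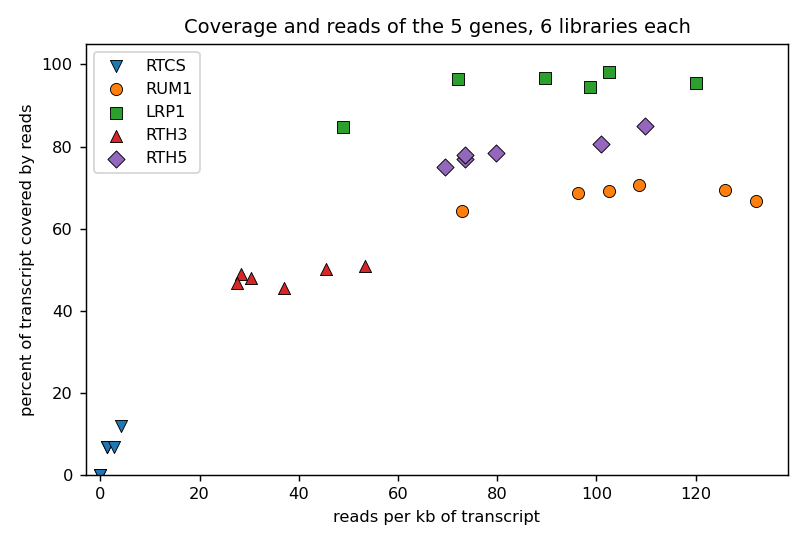
Percent of each member's transcript covered by reads against its reads per kilobase in the 6 libraries, with 1 point for each library. RTH3 stays at 45.5% to 51.0% from 55 to 107 reads, whereas LRP1 reaches 98.3%.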

How the data were processed

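The 5 genes and the lists were chosen with earlier results of these data known. The authors deposited 1 table with the count of uniquely aligned reads per transcript, not normalized, for 6 libraries. The table also holds the RPKM that the authors computed from counts, transcript lengths and library totals, which was recomputed to within 1.74e-06. The percent of each transcript covered by reads was also deposited by the authors and was used as given, as was the transcript length. Reads were filtered and aligned to the B73 RefGen_V2 genome by the authors. Reads came from a kit for which no strand setting was given in the sources used here, so overlapping antisense transcripts cannot be told apart. Every column of per-sample values was mapped (0 unmapped columns). The labels state biological replicates, but each condition has 1 library, and whether a library pooled them was not stated.

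The 2-library test was the Audic-Claverie test as the authors used it, 2-sided, with counted reads as totals and an RPKM of 0 set to 0.01. Differences between salt ratios were tested exactly and 2-sided, by Fisher's noncentral hypergeometric distribution, on transcripts with at least 20 reads, with 1 read added for the ratios. Their intervals are normal approximations from the counting SE and are not exact. The edgeR 4.0.16 quasi-likelihood fit used TMM scaling, and DESeq2 1.42.0 was the alternative. Other alternatives were the FDR, the minimum of reads, the scaling, an assumed BCV and leaving out a root type. The upper tail with the observed count and reads per kilobase of covered bases were chosen after seeing the data. The main 2-library test, the test of differences between salt ratios and the edgeR test of the average salt effect were also run on simulated data. The edgeR root type contrasts, DESeq2 and the other alternatives were not. The genes named are the members, the transcripts called in their family lists and 1 or 2 with the most reads per kilobase in a list. Also named are rum1-like1, CSLD1, BIGE1 and 1 called NRT2 transcript. Of the transcripts closest in pattern to each member, fewer are named than were planned.

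The names of the members were given with their identifiers, and those of other genes came from the RefSeq table. It matched 15270 of 43006 genes and 4 of the 5 members by identifier (not LRP1). Its synonyms held the names of RTCS and RTH3 but not those of RUM1 and RTH5. The table holds no gene descriptions, so the LBD, SRS, COBRA-like and CSLD lists were taken from its synonyms and KEGG names, and Aux/IAA, ARF and RBOH from KEGG names alone. The exocyst list and the genes rth1, rth6, arf25 and arf34 matched no entry. The RTCS-like gene rtcl matched an entry that carried no identifier of the table. Its assembly differs from that of the files, so no coordinates are given. Scripts ran in Python 3.11.15 (scipy 1.17.1, numpy 2.4.6, pandas 2.3.3, matplotlib 3.10.9) and in R 4.3.3. Intervals at 95% and the floor of 3 reads cover counting error only, since reads carried no molecular identifiers.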

Additional observations from a re-analysis of the deposited data

How the results depend on the processing

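For the members, with RTCS among them, 466 values were recomputed under alternatives. Of these, 455 kept their direction and their side of the threshold, 5 lost a call, 2 gained one and 4 changed sign. In the 2-library comparisons, each ratio stayed the same under the looser FDR, Fisher's exact test and the minimum of reads. It also stayed the same under an assumed BCV, with reads summed to genes and with the upper tail at the observed count. There no direction could change, and no ratio under 1 in size could become a call. The 455 thus include many outcomes that were fixed in advance. The sign changes were all in the average salt effect, which was near 0: for LRP1 (-0.02) it became 0.00887 without TMM and 0.0234 without the root type covariate and ran from -0.242 to 0.221 when a root type was left out (0.221 without PR), and for RUM1 (-0.16) it ran from -0.337 to 0.0240 (0.0240 without PR). With an assumed BCV of 0.1 or 0.2 the number of members called went from 1 to 0 for CR-salt over PR-salt and for SR-salt over PR-salt. DESeq2 called 0 members for CR over PR where edgeR called 1. Without the filter on low reads edgeR called 2 members for CR over PR and 1 for SR over PR, the added one being LRP1 with FDR values of 0.00699 and 0.0024. That setting also called more transcripts in all, as counted below, and their share of those tested is not given.

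Over all transcripts, an FDR of 0.05 in place of 0.001 gave 373 calls in PR (212), 312 in CR (148), 334 in SR (159), 1387 for CR over PR (842), 1089 for SR over PR (635), 413 for SR over CR (211), 1006 for CR-salt over PR-salt (628), 870 for SR-salt over PR-salt (507) and 343 for SR-salt over CR-salt (176). A BCV of 0.1 gave 137, 65 and 59 calls in PR, CR and SR, 407 for SR over PR, 90 for SR over CR, 410 for CR-salt over PR-salt, 329 for SR-salt over PR-salt and 71 for SR-salt over CR-salt. A BCV of 0.2 gave 39, 4, 3, 245, 172, 9, 154, 100 and 6 in the order of the 9 comparisons. DESeq2 gave 41 salt calls (113 by edgeR), 510 for CR over PR (1193), 339 for SR over PR (864) and 84 for SR over CR (203), and edgeR without the filter gave 795, 2053, 1638 and 707. Without the root type covariate there were 0 salt calls, and leaving out a root type in turn gave 47 (SR), 59 (CR) and 748 (PR). The libraries of a root type were paired only through that covariate, since each condition has 1 library. The causes were not tested. The 7 reads of RTCS allow no comparison at this depth.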

Other observations

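Between the members, Pearson's r of log2(RPKM + 1) over the 6 libraries was 0.82 for RUM1 and LRP1, 0.56 for RUM1 and RTH3, 0.49 for LRP1 and RTH3, 0.35 for LRP1 and RTH5, 0.34 for RTH3 and RTH5 and -0.07 for RUM1 and RTH5. Across the same libraries RTH3 and CSLD1 had r = 0.95. This pair was not planned, and 113 transcripts had an r of at least 0.9 with RTH3. These values describe 6 libraries that share their totals, and the transcript most like each member was at 0.986 or above.

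Counting only the covered bases as length raised the level of every member in every library where it had reads. RTH3 then lay between 22.0 and 42.0 RPKM, RUM1 between 42.5 and 79.4, LRP1 between 21.7 and 49.5 and RTH5 between 36.2 and 51.1. On this scale RTH3 was above LRP1 and RTH5 in SR (42.0 against 37.2 and 38.3 RPKM) and above LRP1 in PR-salt (22.0 against 21.7), whereas with the full length it was the lowest of the 4 in every library.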
